A study of Mus musculus with 2 samples.

Results

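Microglial and complement transcripts were examined in pools of laser-captured cortical neurons, through 9 genes: the C1q chains C1qa, C1qb and C1qc, the receptors Csf1r, Cx3cr1, P2ry12 and Trem2, the adaptor Tyrobp, and the protease Ctss. They were taken by name, from a list chosen with earlier results of these data known. Each symbol was matched to its gene identifier without the version, and all 9 were found among the 43346 gene identifiers of both deposited tables. RNA was measured in 2 libraries of 1 group, labelled biological replicates 1 and 2. Each library came from a pool of 50 layer 5 pyramidal neurons taken by laser capture from wild-type male mice aged 8 months, and was made with a Smart-seq type protocol from RNA longer than 200 nt with spike-in RNA added. The strain is given as B6NCrl in one label and as C57Bl5 or C57Bl6 in others, and no transgene, treatment or second condition is named. One donor identifier is given for both pools, so it is unsettled whether they came from different animals, and their spread may be only technical.

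Microglia are the resident macrophages of brain tissue, and pyramidal neurons are the excitatory output cells of the cortex. C1q, built from the A, B and C chains, is the recognition part of the classical complement pathway, which can tag cells and synapses for uptake by phagocytes, and in brain its main source is microglia. TREM2 is a lipid-sensing receptor that signals through the adaptor TYROBP (DAP12), CSF1R is the growth factor receptor on which microglia depend, CX3CR1 and P2RY12 receive the chemokine CX3CL1 and ADP, and cathepsin S is a lysosomal protease of myeloid cells. In bulk RNA of this kind, fewer cells of a type and less RNA per cell cannot be told apart.

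Upstream sequence is shown for 3 of the loci, as the 250 bases that precede the start, because PU.1, the product of Spi1, is the transcription factor that defines the myeloid lineage and its binding sites hold a purine-rich core. Of the 9 genes, C1qb, C1qc, Ctss, Cx3cr1, P2ry12 and Trem2 had an entry in the RefSeq promoter table for GRCm38.p6; C1qa, Csf1r and Tyrobp had none. The letters GAGGAA, searched on both strands, were in 4 of the 6 windows, those of C1qb, C1qc, Ctss and Trem2, and in 23.3% of all 32851 windows of the same length. The longer GAGGAAGT, which contains the shorter run, was in 1 of the 6, that of C1qc, and in 2.44% of all windows. Both lengths were chosen after several had been tried, and a match describes letters, not a bound site. The 3 matching windows that hold no annotated exon are given here 5′ to 3′ on the gene's strand, with GAGGAA or its reverse complement TTCCTC in capitals: C1qb at chr4:136886201-136886450 on the minus strand, Trem2 at chr17:48346151-48346400 and Ctss at chr3:95526536-95526785, both on the plus strand.
C1qb: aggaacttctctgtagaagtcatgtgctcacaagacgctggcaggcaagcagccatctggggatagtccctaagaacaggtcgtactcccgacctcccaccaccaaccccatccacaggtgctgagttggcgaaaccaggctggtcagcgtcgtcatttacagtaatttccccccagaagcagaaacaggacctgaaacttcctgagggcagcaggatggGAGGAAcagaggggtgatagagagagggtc
Trem2: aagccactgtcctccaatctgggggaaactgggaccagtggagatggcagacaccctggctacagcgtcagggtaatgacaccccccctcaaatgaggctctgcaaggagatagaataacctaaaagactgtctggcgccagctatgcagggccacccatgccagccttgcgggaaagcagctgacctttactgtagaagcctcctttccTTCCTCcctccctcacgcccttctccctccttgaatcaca
Ctss: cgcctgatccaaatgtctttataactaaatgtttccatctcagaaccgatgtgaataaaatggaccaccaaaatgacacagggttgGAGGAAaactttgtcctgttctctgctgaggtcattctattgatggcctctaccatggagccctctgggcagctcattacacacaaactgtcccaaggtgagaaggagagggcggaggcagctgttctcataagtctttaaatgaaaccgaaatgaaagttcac
Counted back from -1, the base before the start, the run began at -30 for C1qb, -40 for Trem2 and -164 for Ctss. Trem2 carried it on the opposite strand. The RNA of these 3 genes differed widely between the pools, from 2.83-fold for C1qb to 42.0-fold for Trem2, as given below. C1qc, which also matched, was at 2.45-fold. P2ry12 and Cx3cr1, with no match, were at 3.53-fold and 4.36-fold. A link between the letters and these ratios was not tested.

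The libraries held 24171434 (replicate 1) and 27946180 (replicate 2) estimated reads with spike-ins, of which 23137706 and 26460503 fell on genes. In TPM, a share of transcripts corrected for length, 14057 and 13690 genes reached 1 or more. All 12 pyramidal neuron markers were at TPM of at least 1 in both pools, led by Snap25, Pcp4 and Nrgn. Their summed level was 8328 TPM in replicate 1 and 12284 TPM in replicate 2. Snap25, a gene of neurons at large, gave 5388 and 6767 TPM of these sums. The labels count the captured neurons but give no number of other cells in a pool.

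All 9 microglial genes had reads in both pools, at low levels. Their reads summed to 3776 in replicate 1 and 1384 in replicate 2, which were 0.0163% (95% exact binomial interval 0.0158 to 0.0168%) and 0.00523% (0.00496 to 0.00551%) of the reads on genes. The summed level was 170 TPM and 55.5 TPM, while the summed level of the 12 pyramidal markers was 49.1 and 221 times as high. That marker sum is led by Snap25, so the ratio is not one of pyramidal neuron RNA alone. The median gene was at 16.2 and 5.30 TPM in the respective pools, and the median of the 9 mean levels was 10.8 TPM, a value that each pool shifts strongly. All 9 genes reached TPM of at least 1 in replicate 1 and 7 did so in replicate 2. The same 7 passed in both, beside 52.2% of 21474 protein-coding genes; Trem2 and Cx3cr1 were below 1 TPM in replicate 2. Reads were not counted by molecule, since the protocol adds no molecular identifier. Intervals here and below treat each read as independent and cover counting error of reads only. They are too narrow where several reads are copies of 1 molecule.

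The C1q chains gave the highest summed level of the set. C1qb, the B chain, was at 39.4 TPM (779 reads) in replicate 1 and 13.9 TPM (308 reads) in replicate 2, a mean of 26.6 ± 18.0 TPM (SD, n = 2). C1qc, the C chain, was at 20.5 TPM (452 reads) and 8.33 TPM (206 reads), a mean of 14.4 ± 8.58 TPM. C1qa, the A chain, was at 16.2 TPM (304 reads) and 5.41 TPM (114 reads), a mean of 10.8 ± 7.59 TPM. Replicate 1 was the higher pool for each chain, and the chains kept the order C1qb, C1qc, C1qa in both pools although the protein holds the chains in equal number. C1qb made up 51.8% and 50.3% of the summed chain TPM, C1qc 26.9% and 30.1%, and C1qa 21.3% and 19.6%. Counted in reads, the share of C1qa was 19.8% (95% exact binomial interval 17.8 to 21.9%) in replicate 1 and 18.2% (15.2 to 21.4%) in replicate 2, and the intervals of C1qb (48.2 to 53.3% and 45.1 to 53.0%) and C1qc (27.2 to 31.8% and 29.1 to 36.6%) also overlapped between the pools. At this depth no difference in the proportions of the chains could be resolved, while their sum was 76.0 TPM in one pool and 27.7 TPM in the other.

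The chains lie side by side on the minus strand of chromosome 4 (GRCm38, the mm10 build), with C1qb at 136880129 to 136886187, C1qc at 136889804 to 136893065 and C1qa at 136895917 to 136898803. They span 18675 bases, the gaps between them are 3616 and 2851 bases, and the annotation places no other gene in the span. None of the 3 shares exon bases with another annotated gene. Each has 3 exons in its coding transcript. C1qa and C1qb have only 1 annotated transcript, which holds their whole level by definition. In replicate 1, the library whose transcript table was used, the coding transcript of C1qc held 100% of its level. The other annotated transcript of C1qc, a noncoding one, was at 0.

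Trem2 was the member most unequal between the pools, while its adaptor Tyrobp was among the less unequal ones. Tyrobp (chromosome 7, 30413760 to 30417585, plus strand) was at 35.9 TPM (334 reads) in replicate 1 and 16.4 TPM (171 reads) in replicate 2, a mean of 26.2 ± 13.8 TPM. Trem2 (chromosome 17, 48346401 to 48354147, plus strand) was at 16.0 TPM (338 reads) and 0.420 TPM (9 reads), a mean of 8.20 ± 11.0 TPM. Trem2 was thus near the middle of the set in replicate 1 and the lowest gene of the set in replicate 2. Its level was 0.445 times that of Tyrobp in replicate 1 and 0.0256 times in replicate 2. Trem2 reads in replicate 1 went mainly to the coding transcript Trem2-201 with 84.6% of the gene's TPM, then to the coding Trem2-202 with 13.5%, and to a retained-intron form with 1.99%. Tyrobp has only 1 annotated transcript.

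Of the surface receptors, P2ry12 had the highest mean TPM after Trem2. P2ry12 (chromosome 3, 59216272 to 59262871, minus strand), the ADP receptor that sets homeostatic microglia apart from most other macrophages, was at 9.62 TPM (388 reads) in replicate 1 and 2.64 TPM (123 reads) in replicate 2, a mean of 6.13 ± 4.94 TPM. Cx3cr1 (chromosome 9, 119901616 to 120069879, minus strand), the fractalkine receptor, was at 3.32 TPM (230 reads) and 0.730 TPM (59 reads), a mean of 2.03 ± 1.83 TPM. Csf1r (chromosome 18, 61100598 to 61132149, plus strand) was at 3.41 TPM (314 reads) and 2.38 TPM (245 reads), a mean of 2.90 ± 0.728 TPM. Csf1r was the member whose level differed least between the pools, and replicate 1 was still the higher one.

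Csf1r is also the member with the largest exon overlap: 873 of its 5774 exon bases, 15.1%, are shared with Hmgxb3 on the opposite strand. Whether counting used strand is not given in the sources used here. Hmgxb3 was at 2.23 TPM (223 reads) in replicate 1 and 5.32 TPM (596 reads) in replicate 2, a log2 ratio of -1.18, which is opposite in direction to all members (-0.84 with libraries scaled by spike-in totals). In replicate 1 all of the Csf1r level was assigned to Csf1r-202, and Csf1r-201 was at 0. The part of the overlap in the Csf1r value was not tested. P2ry12 lies inside Med12l, which was at 1.02 and 1.22 TPM, but shares only 9 exon bases with it, and Cx3cr1 shares 78 with Gm33858.

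Ctss (chromosome 3, 95526786 to 95556403, plus strand), which encodes cathepsin S, was at 25.4 TPM (637 reads) in replicate 1 and 5.30 TPM (149 reads) in replicate 2, a mean of 15.3 ± 14.2 TPM. It ranked 3 in the set in replicate 1 and 5 in replicate 2. Ctss-202 carried 83.6% of its level in replicate 1 and Ctss-201 16.4%. The corresponding leading transcripts were P2ry12-202 with 94.2% and Cx3cr1-201 with 70.8%.

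By mean level the order was C1qb, Tyrobp, Ctss, C1qc, C1qa, Trem2, P2ry12, Csf1r and Cx3cr1. No neighbours in that order differed by more than the larger of their SDs. Within replicate 1 the order was C1qb, Tyrobp, Ctss, C1qc, C1qa, Trem2, P2ry12, Csf1r, Cx3cr1. In replicate 2 it was Tyrobp, C1qb, C1qc, C1qa, Ctss, P2ry12, Csf1r, Cx3cr1, Trem2, so that Trem2 and Ctss were the genes that changed place by more than 1 rank. No gene is named for a pattern like that of a member, since over 2 libraries every correlation is 1 or -1.

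**Figure D1:**
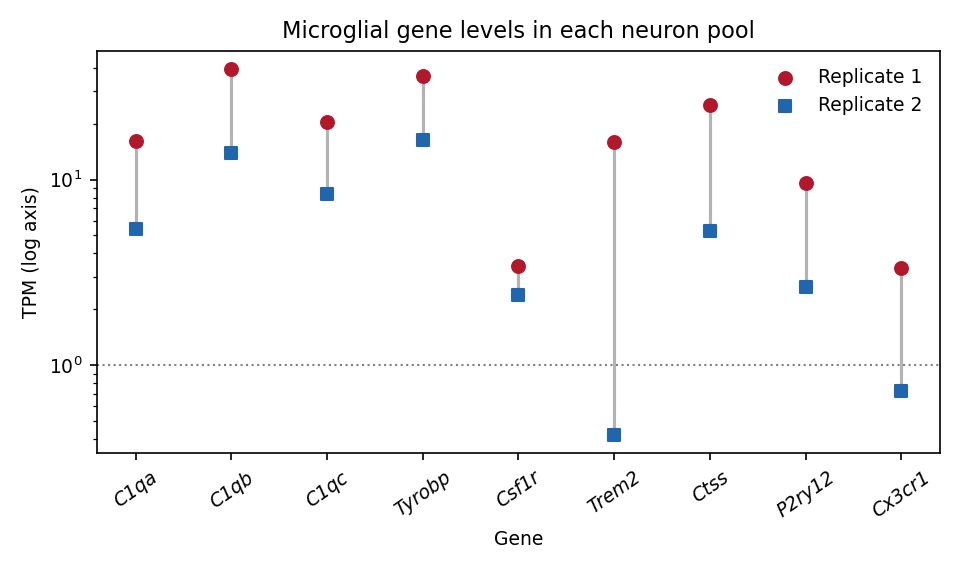
Level of each of the 9 genes (TPM, log axis) in replicate 1 and replicate 2, 1 point per library, with a dotted line at 1 TPM. Every gene was higher in replicate 1, the gap was widest for Trem2 (16.0 against 0.420 TPM) and narrowest for Csf1r (3.41 against 2.38 TPM), and Trem2 and Cx3cr1 lay under the line in replicate 2.

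The ratio between the pools was then taken on CPM, the count scaled to library size, as log2((CPM + 1)/(CPM + 1)), replicate 1 over replicate 2, with library sizes scaled by TMM. It compares 2 libraries and no conditions, so it carries no test. The members' median ratio was 1.42, against -0.01 over the 14331 genes with a mean CPM no lower than 1 and 0.00 over the 3853 genes whose mean CPM, 6.04 to 22.5, lay in the range of the members. By this measure 8 of the 9 were at least 2-fold higher in replicate 1 and 0 were 2-fold higher in replicate 2, where 6.41% of all genes and 6.36% of genes in the members' range were called higher in replicate 1. Trem2, among the 8, was at 0.344 CPM in replicate 2 and passed the filter through replicate 1 alone, so its call lends no weight to the count. The shares called higher in replicate 2 were 3.94% and 4.15%. At mean CPM of at least 10, 5 of 6 members were called, with 2.60% of 9190 genes as background.

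Trem2 had the highest ratio of the members, 42.0-fold by counts per library size (95% exact counting interval 21.9 to 92.6) and 3.52 on the log2(CPM + 1) scale. With a pseudocount of 0.1 the latter became 5.03, and replicate 2 held only 9 reads of the gene. Ctss followed at 4.78-fold (3.99 to 5.75), then the chemokine and ADP receptors, Cx3cr1 at 4.36-fold (3.26 to 5.90) and P2ry12 at 3.53-fold (2.87 to 4.36). The C1q chains were close to each other, C1qa at 2.98-fold (2.40 to 3.73), C1qb at 2.83-fold (2.47 to 3.24) and C1qc at 2.45-fold (2.08 to 2.91). Tyrobp was at 2.18-fold (1.81 to 2.64). Csf1r, at 1.43-fold (1.21 to 1.70), was the member under 2-fold. All 9 intervals lay above 1, and those of Trem2 and Csf1r overlapped with that of no other member. The intervals hold counting error of reads only, not copies of a molecule or the variation between pools of cells.

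**Figure D2:**
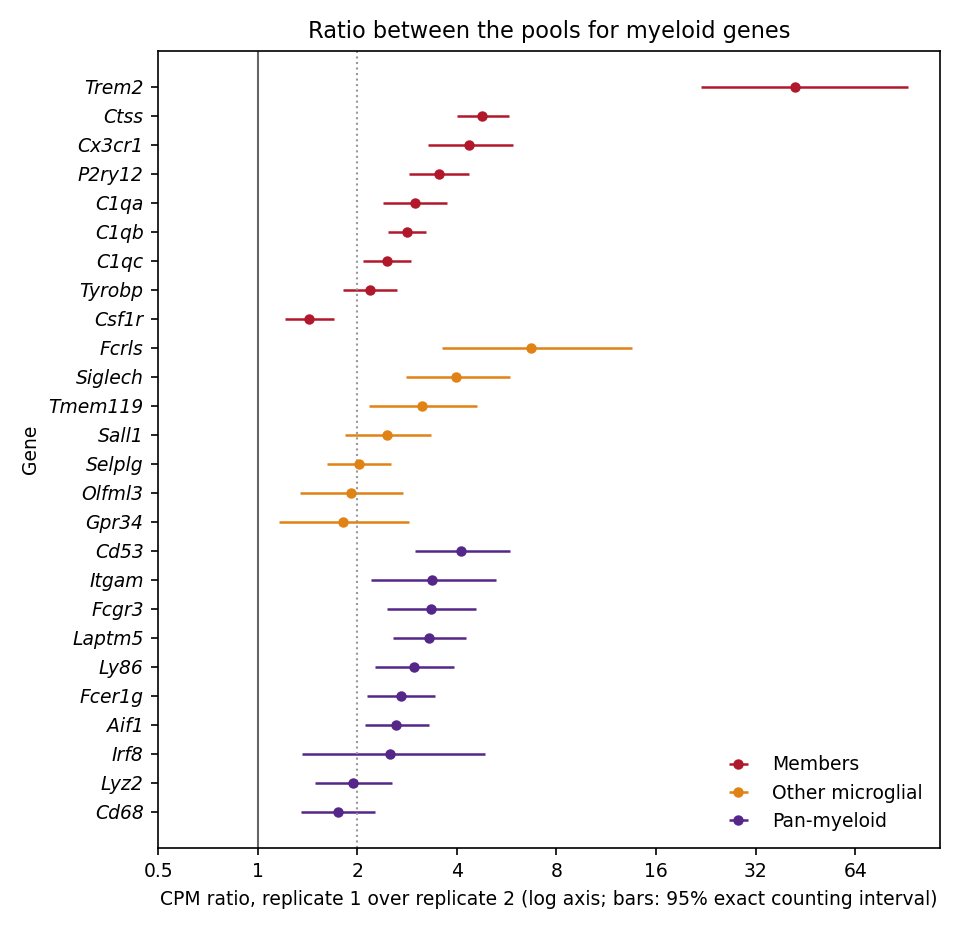
Ratio of replicate 1 over replicate 2 (log axis, counts divided by TMM-scaled library sizes) for the 9 members and the other microglial and pan-myeloid markers past the filter, with bars for 95% exact counting intervals. Genes with no read in replicate 2, such as P2ry13, and 1 other microglial marker are left out of the plot. The points lie to the right of a ratio of 1, from Csf1r at 1.43 to Trem2 at 42.0.

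Further marker genes of microglia and of myeloid cells were mostly higher in replicate 1 too. Of 10 further microglial markers 9 passed the filter at mean CPM of at least 1, 5 were at least 2-fold higher in replicate 1 and 0 in replicate 2, and their median log2 ratio was 1.04. Among those called, P2ry13 and Fcrls passed the filter through replicate 1 alone, so they lend no weight to the count or to the median. Fcrls was named after its value was seen. Selplg was at 4.61 and 2.28 TPM and Siglech at 3.97 and 1.88 TPM. P2ry13, a further ADP receptor, had 80 and 0 reads, a ratio of 29.8 to a floor of 3 reads per library in place of the 0, with a lower limit of the 95% exact counting interval at 23.7. Tmem119, chosen for naming after its value was seen as a defining microglial surface protein, had 112 and 40 reads. Of the 14 genes shared by myeloid cells at large 10 passed the filter, 7 were at least 2-fold higher in replicate 1 and 0 in replicate 2, with a median of 1.23. They were led by Fcer1g, the signalling chain of Fc receptors, at 22.1 and 8.16 TPM, Aif1 (IBA1) at 20.4 and 8.08 TPM, and the lysosomal Cd68 at 9.81 and 6.12 TPM. Cd53 had the highest log2 ratio of that list, 1.60, and Irf8 the lowest, 0.66. Spi1, the gene of PU.1, had 14 and 0 reads, and Ptprc (CD45) had 43 and 1; both were named after their values were seen.

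Macrophages at the brain's borders and vessels share many genes with microglia. The 8 markers listed for them summed to 273 reads (12.8 TPM) in replicate 1 and 20 reads (0.850 TPM) in replicate 2. Mrc1 had 69 and 0 reads, Pf4 54 and 0, and F13a1 76 and 0, and their ratios to the floor of 3 reads were 25.7, 20.1 and 28.3, with lower limits of the 95% exact counting intervals at 20.4, 15.8 and 22.5. These 3 were the markers past the filter, which they passed through replicate 1 alone, so no count or median of the list is given. Stab1 had 32 and 16 reads, and Lyve1, a defining gene of perivascular macrophages, had 0 and 1. Since C1q, Csf1r and Tyrobp are also transcribed by such macrophages, their part in the members' values was not tested. Of the 11 markers of blood leukocytes 9, Ly6c2 among them, were at 0 in both pools, and the other two, Ccr2 with 0 and 12 reads and Cd79a with 0 and 9, had reads in replicate 2 alone.

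Genes that microglia switch on around damage were mixed. Of 14 such genes 9 passed the filter, 2 were at least 2-fold higher in replicate 1 and 0 in replicate 2, with a median of 0.52. Both genes called passed the filter through replicate 1 alone. Spp1 (osteopontin), 337 and 21 reads, was 17.9-fold higher in replicate 1 (11.5 to 29.4). Apoe, which astrocytes make in quantity, was at 513 and 420 TPM, and the lysosomal proteases Ctsb and Ctsd were at 217 and 292 TPM and at 131 and 147 TPM. Lpl (lipoprotein lipase), the other gene called, had 114 and 3 reads, a ratio of 42.5 (14.2 to 209). Among the 5 genes under the filter, Ch25h had 30 and 1 reads and Gpnmb 24 and 1, while Cst7, Itgax and Clec7a were at 0 in both pools. Lpl and these 5 were named after their values were seen.

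Beyond C1q, little of the complement cascade was found. Of 17 other components 7 were at 0 in both pools, C3 among them, which with a floor of 3 reads allows up to 0.128 CPM in replicate 1 and 0.115 CPM in replicate 2. Only 2 passed the filter, each through 1 pool alone. C1ra, a C1 protease subunit, had 71 and 2 reads, a ratio of 39.7 (10.6 to 334), and C8g had 16 and 60 reads. C1s1, the partner protease, had 15 and 9 reads, C4b 18 and 1, C4a 14 and 11, and C2 12 and 17. The C1q chains, with 1535 and 628 reads, thus outweighed all 17 other components, which summed to 151 and 133 reads.

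Complement regulators were higher than the components and did not share the members' ratio. Of 15, 13 passed the filter, with 2 at least 2-fold higher in replicate 1, 3 in replicate 2 and a median of 0.30. Clu (clusterin) was at 206 and 237 TPM and Susd4 at 49.8 and 37.7 TPM. Cd47, listed here though it is a signal that restrains phagocytes and not complement itself, was at 168 and 129 TPM. Vtn (vitronectin), which pericytes also make, had the lowest log2 ratio at -2.58, with 86 and 704 reads. Serping1, the inhibitor of the C1 proteases, had 20 and 0 reads, a ratio of 7.45 to the same floor, with the lower interval limit at 5.52. With libraries scaled by spike-in totals the counts of regulators became 3 higher in replicate 1 and 2 in replicate 2.

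Of 12 genes listed as complement and C1q receptors 6 passed the filter, 2 were called higher in replicate 1 and 0 in replicate 2. Those 2 were the subunits of complement receptor 3, Itgb2 at 1.23 and Itgam at 1.17 on the log2 scale. Itgb2 passed the filter through replicate 1 alone, so its call lends no weight to the count. Widely transcribed genes of that list differed less: Calr was at 130 TPM in each pool and Lrp1 at 8.41 and 12.9 TPM. Sirpa, listed here though its protein is a receptor of CD47 and not of complement, was at 70.9 and 58.2 TPM. Cd93, an endothelial receptor, had the lowest log2 ratio at -0.45. Among 10 genes of proteins with a C1q domain or a C1q-derived name, which neurons transcribe, 7 passed the filter, 2 were called higher in replicate 1, 0 in replicate 2, and the median was 0.28. C1qbp was at 123 and 130 TPM, C1qtnf4 at 95.3 and 145 TPM and Cbln2 at 71.0 and 133 TPM, each above every C1q chain. Cbln1, a synapse organiser among those called, had 202 and 3 reads and passed the filter through replicate 1 alone.

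Il34 and Cx3cl1, ligands of 2 of the receptors, were more abundant than the receptors themselves. Il34, the CSF1R ligand that cortical neurons make, was at 40.1 and 45.6 TPM, 11.8 and 19.2 times the level of Csf1r. Csf1, the other ligand, was at 1.70 and 0.830 TPM. Cx3cl1, the neuronal ligand of CX3CR1, was at 48.2 and 71.8 TPM, 14.5 and 98.3 times the level of Cx3cr1. Cx3cl1 was thus lower in replicate 1, with a log2 ratio of -0.59 (-0.23 with spike-in totals), where its receptor was higher. Il34 had a log2 ratio of -0.28, which turned to 0.08 with spike-in totals, a scale that moved the median of all genes from -0.01 to 0.33. Csf1 was higher in replicate 1, at 0.81 (1.08 with spike-in totals).

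Downstream of TREM2 and TYROBP, Syk, the kinase that binds the adaptor, had 68 and 12 reads, a ratio of 6.33 (3.40 to 12.9). Plcg2 had 14 and 22 reads, and Hcst (DAP10), an adaptor related to TYROBP, had 17 and 13. Grb2, a general adaptor, was at 49.1 and 38.2 TPM. Across the 14 listed ligands and signalling partners 10 passed the filter, 2 were called higher in replicate 1 and 0 in replicate 2, and the median was 0.16. Both genes called passed the filter through replicate 1 alone.

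Ctss likewise differed from most of its family. Of 11 other cathepsins and cystatins 10 passed the filter, 1 was called higher in replicate 1, 0 in replicate 2, and the median was 0.10. That 1 was Ctsc, the activator of leukocyte proteases, with 128 and 6 reads and a log2 ratio of 2.40, above the 2.08 of Ctss. Ctsc passed the filter through replicate 1 alone. Cst3 (cystatin C), an inhibitor of cathepsin S, was at 1679 and 1334 TPM, and Cstb at 198 and 163 TPM. Cathepsin S trims the invariant chain, Cd74, in class II antigen presentation. Of 7 antigen presentation genes 3 passed the filter, all of class I: B2m at 252 and 334 TPM, H2-D1 at 19.6 and 38.4 TPM, and H2-K1 at 6.75 and 6.36 TPM. Of the class II genes, named after their values were seen, Cd74 had 0 and 1 reads and H2-Eb1 25 and 13. H2-Aa and H2-Ab1 were at 0 in both pools. H2-D1 was the 1 called higher in replicate 2, and with spike-in totals 0 were called.

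**Figure D3:**
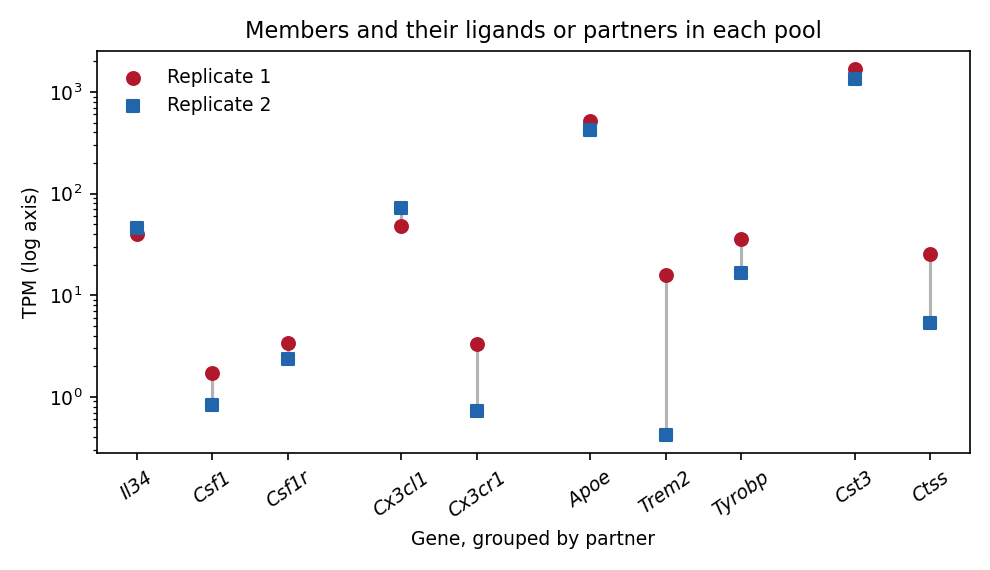
Level (TPM, log axis) of Csf1r, Cx3cr1, Trem2, Tyrobp and Ctss and of their ligands or partners in replicate 1 and replicate 2, 1 point per library. Il34, Cx3cl1 and Cst3 lie above Csf1r, Cx3cr1 and Ctss in both pools, and Trem2 lies below Tyrobp and below Apoe, a ligand it can bind, in both.

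The pools also differed in other cell types, whose part in the members' ratios was not tested. Of 8 markers of oligodendrocyte precursors all passed the filter, 5 were called higher in replicate 1 and 0 in replicate 2, with summed levels of 43.6 and 23.8 TPM and a median log2 ratio of 1.55, from Olig1 at 0.26 to Gpr17 at 1.94. Interneuron markers had 4 of 9 called higher in replicate 1, 0 in replicate 2, a median of 0.58 and summed levels of 3923 and 1531 TPM. Vip, among those called, had 4365 reads and 1 read and passed the filter through replicate 1 alone, so its call lends no weight to the count. The 5 erythroid genes summed to 7.59 and 384 TPM. Of the 4 past the filter, Hba-a1, Hbb-bs and Hbb-bt passed through replicate 2 alone, so no count of calls is given for that list. Mural cell markers were split, 1 called higher in replicate 1 (Acta2) and 3 in replicate 2, with summed levels of 20.4 and 35.9 TPM. Acta2 passed the filter through replicate 1 alone, and Pdgfrb and Kcnj8 through replicate 2 alone, so these calls lend no weight. No marker of astrocytes (11 genes, median -0.18), oligodendrocytes (10 past the filter, -0.26) or endothelial cells (10 past the filter, -0.11) was called in either direction, and of 12 pyramidal neuron markers 2, Fezf2 and Pcp4, were called higher in replicate 2 (median -0.25). With spike-in totals these 4 medians became 0.18, 0.10, 0.22 and 0.12, and 1 astrocyte and 1 pyramidal marker were called higher in replicate 1 and 0 pyramidal markers in replicate 2. On that scale 6 other microglial, 8 pan-myeloid and 4 disease-associated genes and 3 ligands or partners were called higher in replicate 1. It moved the median of all genes past the filter from -0.01 to 0.33. No share of all genes called on it is given here, so added calls are not read as a trait of these lists. The medians of the members and of the pan-myeloid and precursor lists stayed above 1 under each of the 4 scalings. The median of the other microglial list includes P2ry13 and Fcrls, which passed the filter through replicate 1 alone, so it is not read here.

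**Figure D4:**
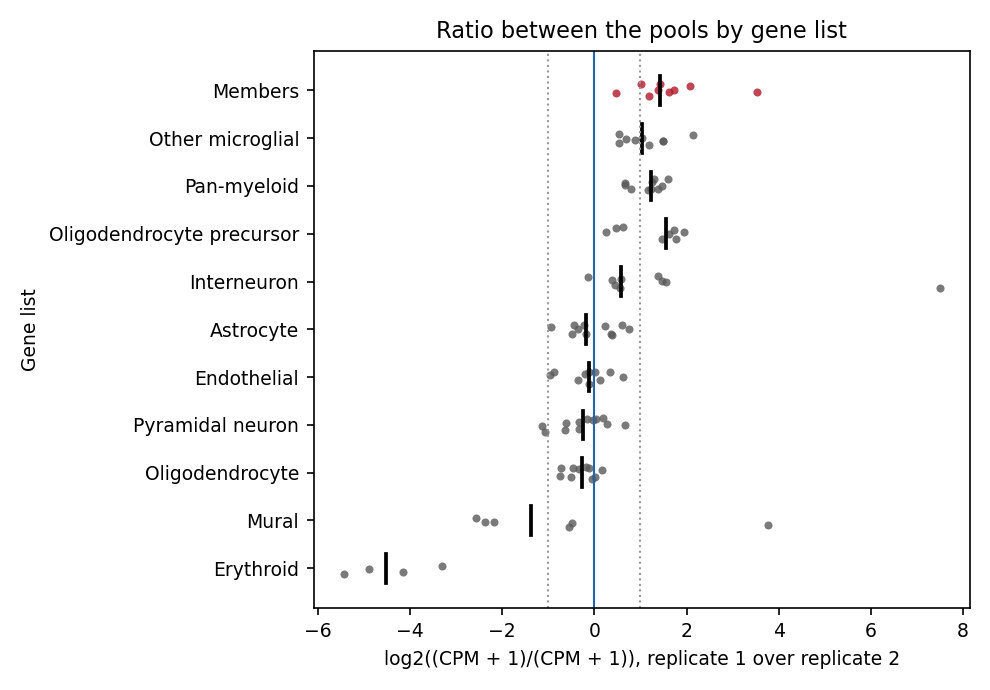
log2((CPM + 1)/(CPM + 1)), replicate 1 over replicate 2, for the genes past the filter in the members and in 10 cell-type lists, 1 point per gene, with a bar at the list's median, dotted lines at 2-fold either way and a line at the median of all genes past the filter. The member, pan-myeloid and oligodendrocyte precursor lists have medians above 1, and the astrocyte, oligodendrocyte, endothelial and pyramidal neuron lists lie near 0. Some genes passed the filter through 1 library alone, and the medians of their lists include them. Among these are Trem2, P2ry13, Fcrls, Vip, Acta2, Hba-a1, Hbb-bs and Hbb-bt.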

How the data were processed

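RNA was measured in 2 libraries of 1 group, with replicate numbers from the labels. For each, the authors deposited a gene table with expected counts (estimated reads, not normalized), TPM and FPKM. For replicate 1 the deposited transcript table was used for the percent of a gene's TPM held by each transcript. Tables were made on mm10 with genome annotation M4, per the text files deposited with them. The names of the aligner and quantifier, and the strand setting, are not given in the sources here.

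Symbols and coordinates came from GENCODE M21 (GRCm38) by identifier without version, which matched 42462 of 43346, and promoter windows from RefSeq GRCm38.p6. The 97 spike-in or control entries (4.28% and 5.32% of reads) and 26248 entries with numeric identifiers stayed out of library sizes. Expected counts were rounded. TMM factors from edgeR 4.0.16, run in R 4.3.3, scaled the libraries; DESeq2 1.42.0 size factors, gene totals and spike-in totals were alternatives. Ratios used a pseudocount of 1 CPM and a mean CPM of at least 1. A call is a ratio of at least 2-fold. A gene could pass this filter through 1 library alone. Besides the border macrophage markers, called genes below 1 CPM in replicate 2 were Trem2, P2ry13, Fcrls, Lpl, Spp1, C1ra, Itgb2, Cbln1, Syk, P2rx7, Ctsc, Vip and Acta2. Those below 1 CPM in replicate 1 were Pdgfrb, Kcnj8, Hba-a1, Hbb-bs and Hbb-bt. Intervals of ratios are 95% exact conditional binomial intervals given the TMM-scaled sizes, computed in Python 3.11.15 with scipy 1.17.1, and were tested on simulated data.

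The members and 20 other lists were chosen with earlier results of these data known. Named genes are all members, fixed ligands and partners, and from each list the 3 highest by mean TPM and the highest and lowest ratio past the filter; others are said to be named after their values were seen. A few genes picked by this rule are not reported here. The lists share Itgam, Itgax, Vtn, Ctsb, Ctsd, Ctsz and Cst7. With 1 group, no test between conditions and no batch check could be made.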

Additional observations from a re-analysis of the deposited data

How the results depend on the processing

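No paired analysis was possible because the series holds 1 group. The members' median log2 ratio of 1.42 became 1.77 with libraries scaled by spike-in totals, a setting that moved the median of all genes past the filter from -0.01 to 0.33. The count of members called higher in replicate 1, 8, became 5 at mean CPM of at least 10, where 6 members remained to be counted. The 8 include Trem2, which passed the main filter through replicate 1 alone. With DESeq2 size factors, gene totals, TPM in place of CPM or a pseudocount of 0.1, 8 were called and the median lay between 1.42 and 1.55. Of 45 single-gene ratios under alternatives 0 were below 0. With spike-in totals 6 changed by more than the log2 distance from the gene's count ratio to either limit of its counting interval. Trem2 alone did so with the pseudocount of 0.1. The median level of 10.8 TPM was 5.30 TPM without replicate 1 and 16.2 TPM without replicate 2. Using only the 6 members with no exon shared with another gene, an alternative chosen after the data were seen, gave 6 called, a median ratio of 1.40 and a median level of 14.9 TPM. Detection in both pools counted 7 members at TPM of at least 1, 9 at TPM of at least 0.1 and 8 at 10 reads or more. Counts were lowest among the members for Trem2, with 9 reads in replicate 2, so its ratio has the widest interval of the set.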
